A study of Mus musculus with 7 samples.

Results

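Collagen genes encode the chains of the main fibrous and sheet-forming proteins of the extracellular matrix (ECM). The genes described here are the rows of the deposited count table whose Ensembl identifier belongs to a protein-coding gene with a symbol made of Col, a number, a and a number. This rule uses names and no measured value. It found 44 genes among the 38124 in the table, of which 21173 are protein-coding, and they fall into 8 groups by the structure that their proteins build.

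RNA-Seq was performed on the cells with the strongest RFP fluorescence (High RFP) sorted from E15.5 mouse neocortex, 48 hr after *in utero* electroporation at E13.5. In 3 libraries (control replicates 1, 2 and 4) the embryos had received the control construct, which leads to nuclear RFP, and in 4 libraries (Sox9 replicates 1 to 4) the conditional Sox9 expression construct, which leads to nuclear RFP and Sox9. All embryos of both groups carried the *Tis21*-CreERT2 allele in the heterozygous state and were exposed to tamoxifen, given to the mother on the day before electroporation and on the day itself. Cre is thus active in the apical radial glia that generate basal progenitors (BPs) and in their BP progeny, and sorted RFP-positive cells include later progeny of these. The methods describe cortices pooled from several embryos and mothers, whereas the legends count each library as a neocortex, and p-values measure the spread between these libraries. The comparison asks which mRNAs differ when Sox9 is expressed conditionally in mouse BPs, and here how collagen mRNAs differ.

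Between 4429704 and 12907778 counts per library were assigned to genes. *Sox9*, the gene of the construct, had 362, 1026 and 668 counts in the control libraries against 370, 435, 277 and 177 counts in the Sox9-labelled libraries. The groups overlapped, and no rise of *Sox9* mRNA was seen with the Sox9 label (log2 fold change -0.68, standard error (SE) 0.25, adjusted p = 0.0493 by edgeR's quasi-likelihood test with Benjamini-Hochberg adjustment). The groups are therefore named by their labels. *Eomes*, which encodes the BP transcription factor Tbr2 and was chosen after its values were seen, had 264, 494 and 437 counts in control against 71, 65, 77 and 33 and fell without overlap in CPM (log2 fold change -2.25, SE 0.23, adjusted p = 4.9e-05). The labels call the cells neural progenitors: the summed level of 9 radial glia markers was 615 to 1164 CPM, which are counts corrected for library size with TMM, in control and 299 to 441 in the Sox9-labelled libraries, whereas that of 8 neuron markers was 12528 to 15711 and 11615 to 13498. Of the radial glia markers 5 of 9 fell, and of 6 intermediate progenitor markers 3 fell (220 to 253 and 128 to 157 CPM in sum), beside 3.88% of protein-coding genes tested. Of the 8 neuron markers edgeR called 0 and DESeq2 1, and 4 differed at an unadjusted p under 0.05.

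Collagen chains assemble into helical trimers in the endoplasmic reticulum, and each chain type takes part in particular trimers. Fibrillar collagens form the fibers of connective tissue, type IV collagens the meshwork of basement membranes, FACIT collagens sit on fibers, and other groups form networks, beaded filaments or transmembrane proteins. In the embryonic neocortex, collagen-rich basement membranes surround blood vessels and underlie the meninges, and cortical progenitors are also known to express ECM components. Sox9 is a well-known activator of the cartilage collagen gene *Col2a1*.

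Of the 44 collagen genes, 38 passed edgeR's filter on low counts and were tested. Among these 38, 16 were called higher with the Sox9 label and 0 lower, at an adjusted p under 0.01, the threshold for a call here, and 22 were not called. No member was lower at an unadjusted p under 0.05 either, whereas 28 members differed at that level, and DESeq2 called 18 higher and 0 lower. Of the 14267 protein-coding genes tested, 9.96% were called higher and 3.88% lower. The log2 fold change was above 0 for 37 of 38 members under TMM scaling and for 27 of 38 under cyclic loess scaling, which removes trends of the fold change with expression level. The median log2 fold change of the members was 1.72 (1.69 with *Col8a2*, which had at most 3 counts in every control library, at its lower bound), beside -0.06 for all protein-coding genes tested. In 24 of the 38 tested members every Sox9-labelled library was above every control library, as it was for 19.8% of protein-coding genes tested. Cyclic loess scaling with limma called 4 members higher (*Col27a1*, *Col4a1*, *Col5a2* and *Col6a3*) and 0 lower, and the median of the members was then 0.63. Over all protein-coding genes tested, TMM gave 1421 higher and 553 lower calls, and cyclic loess gave 316 and 252, 2.21% of the genes being called higher. Without Sox9 replicate 3, edgeR called 10 members.

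The collagen genes were expressed at low levels. Together they had 637, 623 and 701 counts in control against 1641, 1613, 1813 and 866 counts in the Sox9-labelled libraries. Their summed level was 62.1 ± 8.65 CPM (SD, n = 3) in control and 191 ± 31.1 CPM (SD, n = 4) in the Sox9-labelled libraries, and the groups did not overlap. In bulk libraries, a larger share of cells with collagen mRNA and more collagen mRNA per cell cannot be told apart. The filter asked for a CPM of about 0.956 in a minimum number of libraries, which was met in all 3 control libraries by 13 of the 38 members, in fewer by 25 and in none by 10. A member that met it only through the Sox9-labelled libraries had to differ. Of the 16 calls, 6 fell on the former 13 members and 10 on the latter 25.

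**Figure D1:**
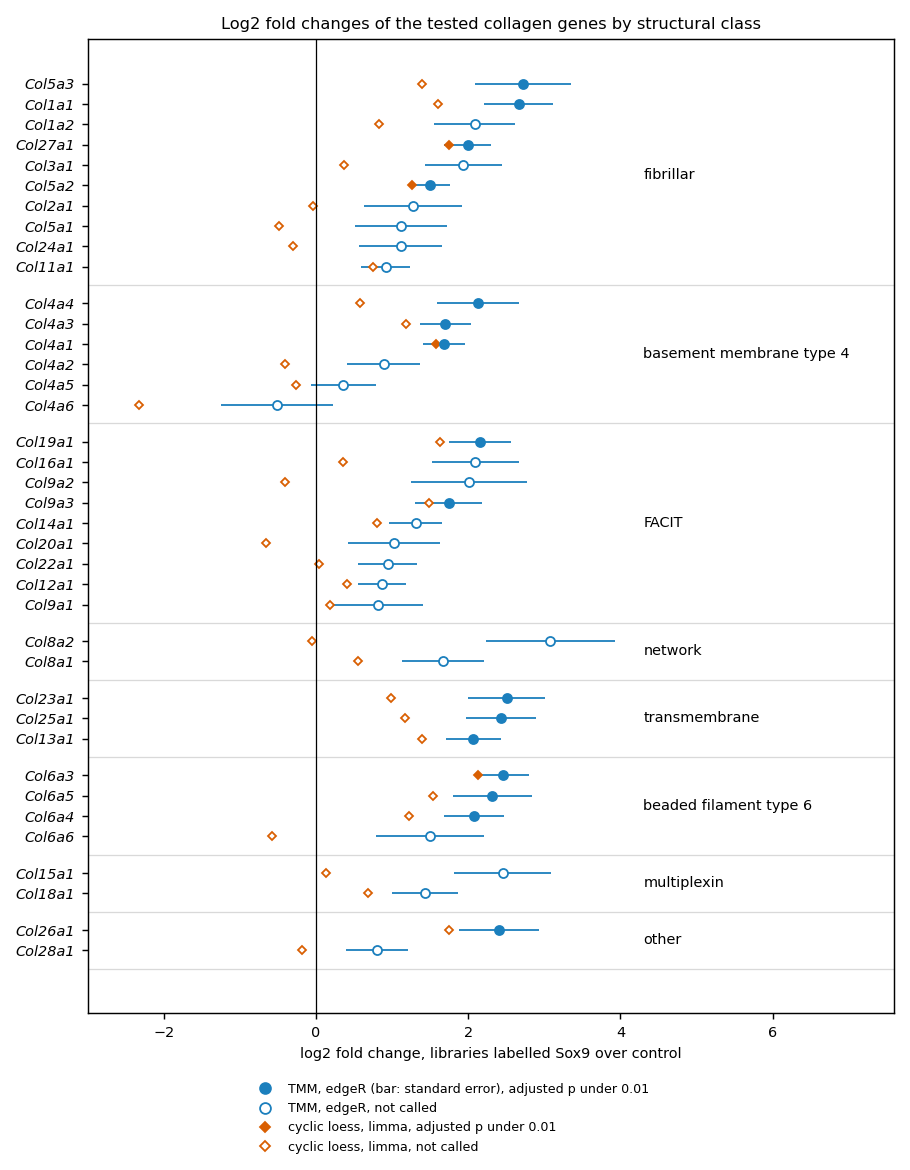
Log2 fold change (x axis, Sox9-labelled libraries over control) of the 38 tested collagen genes (y axis), in 8 structural groups. Blue circles with bars give the TMM estimate and its standard error and orange diamonds the cyclic loess estimate, filled where the adjusted p is under 0.01. All circles except that of *Col4a6* lie above 0, whereas 27 diamonds do.

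Promoter windows are shown here because the type IV chain genes lie in head-to-head pairs and because the gene with the lowest adjusted p can then be set beside a gene with a Sox-type motif. The windows come from RefSeq on GRCm38.p6 and run from 250 bases before to 50 bases after a transcript start, and 38 windows of 35 members were found. In *Col4a1* (chr8:11312777-11313076, minus strand), capitals mark the 78 bases that its window shares with that of *Col4a2*, whose start lies 20 bases away on the opposite strand. In *Col3a1* (chr1:45311288-45311587, plus strand), capitals mark the motif. *Col6a3* (chr1:90843922-90844221, minus strand) had no match.
Col4a1: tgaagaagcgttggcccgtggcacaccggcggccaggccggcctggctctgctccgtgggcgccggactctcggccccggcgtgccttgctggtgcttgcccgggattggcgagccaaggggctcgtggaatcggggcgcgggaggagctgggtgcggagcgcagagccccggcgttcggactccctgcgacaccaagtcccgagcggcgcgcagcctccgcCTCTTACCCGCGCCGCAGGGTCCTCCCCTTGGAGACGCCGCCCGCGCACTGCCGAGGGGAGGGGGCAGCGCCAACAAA
Col6a3: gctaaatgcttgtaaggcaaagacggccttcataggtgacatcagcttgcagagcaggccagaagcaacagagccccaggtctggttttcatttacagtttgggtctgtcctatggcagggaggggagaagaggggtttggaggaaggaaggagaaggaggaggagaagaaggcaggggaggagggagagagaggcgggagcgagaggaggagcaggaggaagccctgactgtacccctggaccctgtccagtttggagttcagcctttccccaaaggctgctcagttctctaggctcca
Col3a1: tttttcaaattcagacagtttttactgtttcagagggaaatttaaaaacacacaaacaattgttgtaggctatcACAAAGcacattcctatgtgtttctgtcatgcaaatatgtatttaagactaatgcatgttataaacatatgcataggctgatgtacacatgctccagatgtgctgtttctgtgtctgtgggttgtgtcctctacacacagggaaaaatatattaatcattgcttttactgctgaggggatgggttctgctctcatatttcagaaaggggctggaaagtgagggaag
The letters ACAATG and ACAAAG, 2 forms of the core sequence that Sox proteins are known to bind, were searched on both strands. ACAATG was found in 1 of the 38 windows of members and ACAAAG in 5, beside 12.6% and 18.7% of all 32851 windows in the table. Either was found in 5 windows of members, those of *Col3a1*, *Col10a1*, *Col17a1*, *Col20a1* and *Col28a1*, which is 13.2% of the windows beside 28.6% of all. None of the 11 windows of members called higher held either motif. These came from 11 of the 16 called members. The called genes *Col1a1*, *Col5a2*, *Col4a3*, *Col9a3* and *Col26a1*, and *Col2a1*, had no window and were not searched. These matches describe letters in these windows and not binding. Members' windows had a median GC content of 59.8%, and all windows 52.7%.

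Fibrillar collagens had 11 members, of which 10 were tested, 4 rose and 6 were not called (median log2 fold change 1.72). *Col1a1* encodes the main chain of type I collagen of skin, bone and meninges (mm10 chr11:94936224-94953042, plus strand). It had 13, 7 and 5 counts in the control libraries against 46, 34, 45 and 28 counts in the Sox9-labelled libraries. All Sox9-labelled libraries were higher, and *Col1a1* rose from 0.786 ± 0.398 (SD, n = 3) to 5.11 ± 1.37 CPM (SD, n = 4), a log2 fold change of 2.66 (SE 0.45, adjusted p = 0.00109 by edgeR's quasi-likelihood test). *Col1a2*, which encodes the other chain of type I collagen (chr6:4504814-4541544, plus strand), had 12, 4 and 8 counts in control against 24, 17, 28 and 26 counts in the Sox9-labelled libraries. In CPM its groups did not overlap, at 0.769 ± 0.402 and 3.37 ± 1.58, but with a log2 fold change of 2.08 (SE 0.54) its adjusted p of 0.0103 missed the threshold. *Col1a2* was called without Sox9 replicate 2 (adjusted p = 0.00604), with no filter on low counts, with DESeq2's size factors and by DESeq2.

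*Col5a2* and *Col27a1* were called under every setting tried. *Col5a2* encodes a chain of type V collagen, which regulates the thickness of type I fibers (chr1:45374321-45503282, minus strand), and had 42, 38 and 40 counts in control against 84, 104, 82 and 60 in the Sox9-labelled libraries. With 3.80 ± 0.428 CPM in control and 10.8 ± 1.56 CPM in the Sox9-labelled libraries, it had the smallest log2 fold change among the 16 called members (1.497, SE 0.26, adjusted p = 0.00133). *Col27a1*, which encodes a fibrillar collagen of developing cartilage (chr4:63214004-63334991, plus strand), had 48, 30 and 24 counts in control against 85, 115, 161 and 50 counts in the Sox9-labelled libraries. Again all Sox9-labelled libraries were higher, with 3.21 ± 1.19 CPM in control, 12.8 ± 3.53 CPM in the Sox9-labelled libraries and a log2 fold change of 1.99 (SE 0.31, adjusted p = 0.000694).

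*Col5a3*, a less widely expressed type V chain, had 8, 0 and 7 counts in control against 22, 28, 34 and 17 counts in the Sox9-labelled libraries (log2 fold change 2.72, SE 0.64, adjusted p = 0.00629). The groups did not overlap, but the call was lost without control replicate 2 or 4 or Sox9 replicate 1, 3 or 4 (adjusted p up to 0.0180), and the log2 fold change was 2.12 without control replicate 2. *Col2a1*, the main collagen of cartilage, had 6, 23 and 8 counts in control against 35, 20, 5 and 20 counts in the Sox9-labelled libraries. Its groups overlapped, since Sox9 replicate 3 had the lowest CPM of all 7 libraries, and its log2 fold change of 1.27 (SE 0.64) was not called (adjusted p = 0.143). Without control replicate 2 the log2 fold change of *Col2a1* was 1.97, also not called (adjusted p = 0.0701). *Col11a1*, which is built into cartilage fibers with type II collagen, was the fibrillar gene with the most counts in control (51, 88 and 54, against 104, 90, 62 and 78) and was not called either (adjusted p = 0.0409). The remaining fibrillar genes tested, *Col3a1*, *Col5a1* and *Col24a1*, had log2 fold changes of 1.11 to 1.94 (*Col24a1* 1.11, or 1.72 without control replicate 4), and *Col11a2* was not tested, with 2 to 13 counts per library.

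**Figure D2:**
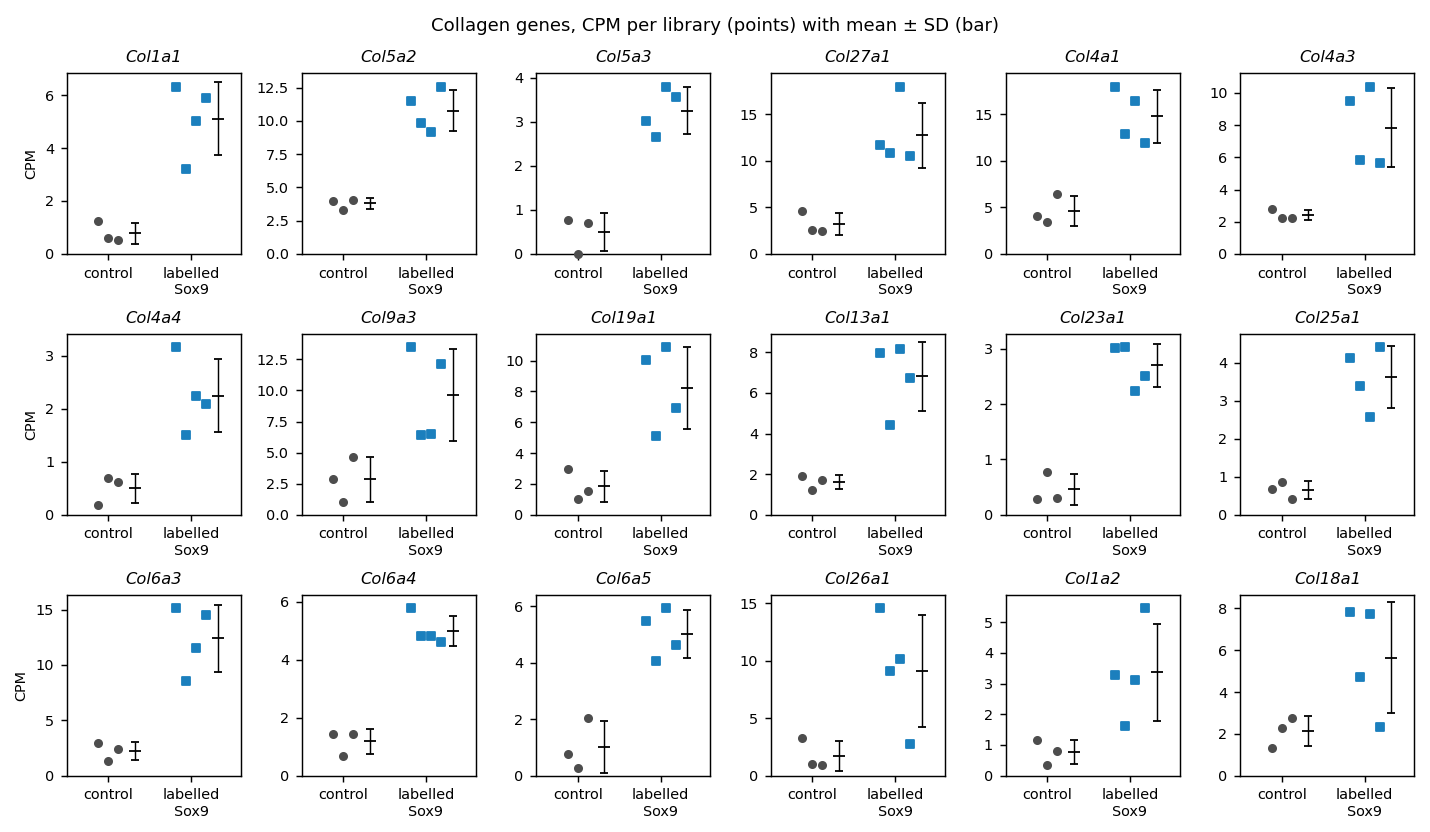
CPM (y axis, from 0, a scale of its own for each gene) of the 16 called collagen genes, *Col1a2* and *Col18a1* in each library. Circles are the 3 control libraries, squares the 4 Sox9-labelled libraries and bars the mean and SD, and *Col26a1* and *Col18a1* are the genes whose groups overlap.

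All 6 type IV genes were tested, of which 3 rose and 3 were not called (median log2 fold change 1.29). *Col4a1* and *Col4a2* encode the chains of the trimer found in nearly all basement membranes. *Col4a1* (chr8:11198423-11312826, minus strand) had 43, 39 and 63 counts in control against 131, 137, 147 and 57 counts in the Sox9-labelled libraries. Every Sox9-labelled library was higher in CPM, and *Col4a1* rose from 4.64 ± 1.58 (SD, n = 3) to 14.8 ± 2.85 (SD, n = 4), a log2 fold change of 1.69 (SE 0.28, adjusted p = 0.000918 by edgeR's quasi-likelihood test). *Col4a2* (chr8:11312805-11449287, plus strand), which overlaps *Col4a1* by 22 bases, had 10, 15 and 5 counts in control against 11, 25, 15 and 6 counts in the Sox9-labelled libraries. The groups of *Col4a2* overlapped, and its log2 fold change of 0.89 (SE 0.48) was not called (adjusted p = 0.168).

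*Col4a3* and *Col4a4* encode chains of the trimer of kidney and other specialized basement membranes, and their genes start 71 bases apart on chromosome 1. *Col4a3* had 29, 26 and 22 counts in control against 69, 62, 93 and 27 counts in the Sox9-labelled libraries (log2 fold change 1.70, SE 0.33, adjusted p = 0.00257). *Col4a4* had 2, 8 and 6 counts in control against 23, 16, 20 and 10 counts in the Sox9-labelled libraries (log2 fold change 2.13, SE 0.54, adjusted p = 0.00918). Neither gene had overlapping groups in CPM. The call of *Col4a3* was lost without Sox9 replicate 3 (adjusted p = 0.0105), and that of *Col4a4* whenever a library other than Sox9 replicate 2 was left out (adjusted p up to 0.0381). *Col4a5*, the partner of both chains, had a log2 fold change of 0.36 (SE 0.43), or -0.06 without Sox9 replicate 3, and *Col4a6*, a chain of smooth muscle and epidermal basement membranes, one of -0.51 (SE 0.73). *Col4a6* was the member with a negative value, at 9, 8 and 13 counts in control against 0, 3, 10 and 7 counts in the Sox9-labelled libraries, and with overlapping groups it was not called (adjusted p = 0.627).

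**Figure D3:**
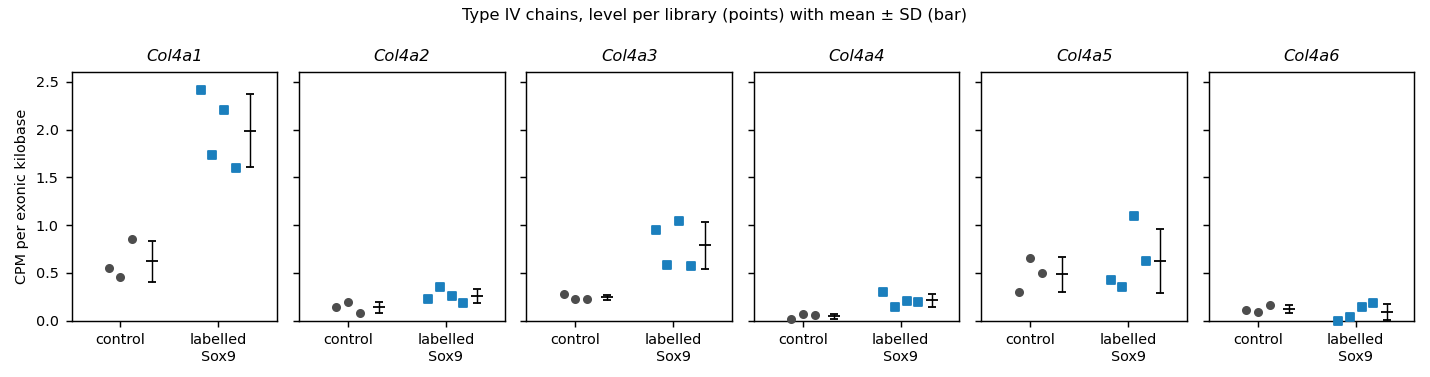
Level of the 6 type IV genes per library (y axis, CPM per exonic kilobase, 1 scale for all). Circles are control libraries, squares Sox9-labelled libraries and bars the mean and SD, and *Col4a1* reaches 1.99 ± 0.382 in the Sox9-labelled libraries whereas *Col4a2* is at 0.257 ± 0.0714.

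Per exonic kilobase, *Col4a1* was above *Col4a2* in every library. The *Col4a1* to *Col4a2* ratio of these levels was 3.81, 2.31 and 11.2 in control and 10.6, 4.86, 8.69 and 8.42 in the Sox9-labelled libraries. The ranges overlapped, and the mean log2 ratio was 0.76 higher in the Sox9-labelled libraries (exact permutation test, two-sided, p = 0.314, adjusted p = 0.471). The *Col1a1* to *Col1a2* ratio was 2.05, 3.31 and 1.18 in control and 3.63, 3.79, 3.04 and 2.04 in the Sox9-labelled libraries (mean log2 ratio 0.60 higher, exact permutation p = 0.257, adjusted p = 0.471). For *Col5a1* to *Col5a2* it was 0.269, 0.0892 and 0.282 against 0.269, 0.109, 0.248 and 0.0565 (mean log2 ratio lower, difference -0.41, exact permutation p = 0.629). With 3 and 4 libraries the smallest p this test can give is 0.0286, so none of these 3 differences could have reached an adjusted p under 0.01, and the test does not show that the ratios were alike. Of 8 pairs of chains that assemble together, 0 had 10 counts of both genes in every library, and these 3 had at least 3, a minimum chosen after the counts were seen.

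Of the 9 FACIT genes, all tested, 2 rose and 7 were not called (median log2 fold change 1.31). *Col19a1* encodes a collagen of basement membrane zones that some neurons are known to produce (chr1:24261890-24587472, minus strand). It had 31, 12 and 15 counts in control against 73, 54, 97 and 33 counts in the Sox9-labelled libraries, or 1.84 ± 0.999 and 8.22 ± 2.68 CPM. Every Sox9-labelled library was higher (log2 fold change 2.15, SE 0.41, adjusted p = 0.00208). *Col9a3* encodes a chain of type IX collagen, which coats cartilage fibers (chr2:180597790-180622189, plus strand), and had 30, 12 and 46 counts in control against 98, 68, 58 and 58 counts in the Sox9-labelled libraries. It had the highest level of all members per exonic kilobase, at 0.743 ± 0.472 in control and 2.5002 ± 0.962 CPM per kilobase in the Sox9-labelled libraries. In CPM the groups did not overlap (log2 fold change 1.74, SE 0.44, adjusted p = 0.00941), but the call was lost whenever a library other than control replicate 4 was left out (adjusted p up to 0.0294).

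Some reads of *Col9a3* may belong to another gene. Its exons overlap those of *Tcfl5*, a transcription factor gene on the opposite strand with 18, 22 and 18 counts in control against 63, 68, 63 and 40 counts in the Sox9-labelled libraries. *Tcfl5* rose too, with a log2 fold change of 2.05 (SE 0.31, adjusted p = 0.000581). Exons of *Col4a3* overlap those of *C430014B12Rik* on the opposite strand, which had 2, 1 and 2 counts in control against 11, 13, 6 and 8 counts in the Sox9-labelled libraries and was at least 4.48-fold higher. *Col4a1* and *Col6a4* were the other called members with overlapping exons. Whether counting used strand is not given in the sources used here, so reads in the shared stretches cannot be told apart. These stretches are short: 234 of 3853 exonic bases of *Col9a3* (6.07%), 563 of 9967 of *Col4a3* (5.65%) and 22 of 7464 of *Col4a1* (0.295%). *Col6a4* shared 127 of 8526 exonic bases (1.49%) with *Gm36993* and 162 (1.90%) with *Gm47575*.

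The other FACIT genes included *Col9a1* and *Col9a2*, the partners of *Col9a3*. *Col9a1* had 5, 17 and 40 counts in control against 44, 17, 30 and 15 counts in the Sox9-labelled libraries, and *Col9a2* had 0 to 4 and 2 to 14. Both had overlapping groups in CPM and were not called (adjusted p = 0.308 and 0.0554), the log2 fold change of *Col9a1* being 0.81, or 1.82 without control replicate 4. *Col14a1*, which encodes a collagen of fiber surfaces, had 25, 24 and 32 counts in control against 46, 42, 64 and 40 counts in the Sox9-labelled libraries. Its groups did not overlap in CPM, and its adjusted p of 0.0128 missed the threshold. *Col14a1* was called by DESeq2 (adjusted p = 0.00608), without Sox9 replicate 2 (adjusted p = 0.00773), with no filter on low counts (adjusted p = 0.00884) and with at least 10 counts in every library (adjusted p = 0.00964). The log2 fold changes of *Col12a1*, *Col16a1*, *Col20a1* and *Col22a1* lay between 0.86 and 2.09 and were not called, except *Col16a1* without Sox9 replicate 2 (adjusted p = 0.00527), and that of *Col20a1* was 1.03, or 1.92 without control replicate 4.

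Beaded filament collagens of type VI connect cells with the surrounding matrix. Of their 6 genes, 4 were tested, 3 rose and 1 was not called (median log2 fold change 2.20). *Col6a3* encodes the long chain that joins *Col6a1* and *Col6a2* products in the common trimer (chr1:90765923-90843971, minus strand). It had 31, 15 and 24 counts in control against 110, 90, 103 and 69 counts in the Sox9-labelled libraries. *Col6a3* rose from 2.24 ± 0.849 to 12.4 ± 3.03 CPM without overlap, a log2 fold change of 2.46 (SE 0.34), and it had the lowest adjusted p among the members (0.000291 by edgeR's quasi-likelihood test). It was called under every setting tried. Its partners were hardly detected: *Col6a1* had 1, 3 and 0 counts in control against 6, 2, 12 and 3 in the Sox9-labelled libraries, and *Col6a2* had 1, 1 and 4 against 0, 9, 2 and 1. Neither of the partners passed the filter.

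*Col6a4* and *Col6a5* encode alternative long chains that can take the place of that of *Col6a3*, and lie 28810 bases apart on chromosome 9. *Col6a4* had 15, 8 and 14 counts in control against 42, 51, 43 and 22 counts in the Sox9-labelled libraries (log2 fold change 2.08, SE 0.39, adjusted p = 0.00195). *Col6a5* had 8, 3 and 20 counts in control against 40, 43, 53 and 22 counts in the Sox9-labelled libraries (log2 fold change 2.31, SE 0.52, adjusted p = 0.00501). Neither gene had overlapping groups in CPM, but the call of *Col6a5* was lost without control replicate 1 or 2 or Sox9 replicate 1 or 3 (adjusted p up to 0.0170), and its log2 fold change was 3.30 without control replicate 4. The neighboring *Col6a6*, a further alternative chain, had 1 to 15 counts per library and was not called (log2 fold change 1.496, or 2.64 without control replicate 4, adjusted p = 0.119 and 0.0403).

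The transmembrane collagens span the plasma membrane and can be shed from it. Of 4 genes, 3 were tested and all 3 rose (median log2 fold change 2.43), and *Col17a1*, a collagen of skin hemidesmosomes with 1 to 11 counts per library, was not tested. *Col13a1*, known from the neuromuscular junction (chr10:61838236-61979108, minus strand), had 20, 14 and 17 counts in control against 58, 47, 73 and 32 counts in the Sox9-labelled libraries. It rose from 1.62 ± 0.360 to 6.82 ± 1.71 CPM (log2 fold change 2.07, SE 0.36, adjusted p = 0.00135). *Col25a1*, known from motor neurons and amyloid plaques, had 7, 10 and 4 counts in control against 30, 36, 23 and 21 counts in the Sox9-labelled libraries (log2 fold change 2.43, SE 0.45, adjusted p = 0.00194). In both genes all Sox9-labelled libraries were higher. *Col23a1* had 3, 9 and 3 counts in control against 22, 32, 20 and 12 counts in the Sox9-labelled libraries (log2 fold change 2.504, SE 0.50, adjusted p = 0.00293). Its groups did not overlap in CPM, and its call was lost without control replicate 1 or 4 (adjusted p up to 0.0132), while its log2 fold change was 3.14 without control replicate 2.

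In the network, multiplexin and remaining groups, 1 of 6 tested genes rose. That gene was *Col26a1* (chr5:136741759-136883209, minus strand), which had 34, 12 and 9 counts in control against 106, 96, 91 and 13 counts in the Sox9-labelled libraries. Its groups overlapped, since Sox9 replicate 4 (2.73 CPM) was below control replicate 1 (3.25 CPM), and its log2 fold change was 2.41 (SE 0.53, adjusted p = 0.00447). The call was lost without control replicate 2 or 4 or Sox9 replicate 1 or 3 (adjusted p up to 0.0158), and the log2 fold change was 3.20 without control replicate 1. *Col18a1* encodes a basement membrane proteoglycan whose fragment is endostatin, and had 14, 26 and 27 counts in control against 57, 50, 69 and 11 counts in the Sox9-labelled libraries. With Sox9 replicate 4 at 2.31 CPM the groups overlapped, and *Col18a1* was not called (log2 fold change 1.43, SE 0.43, adjusted p = 0.0217). It was called without that library (adjusted p = 0.00704) and with no filter on low counts (adjusted p = 0.00534). *Col8a1*, which encodes a network collagen of the eye and vessel walls, had 9, 21 and 4 counts in control against 18, 45, 44 and 7 counts in the Sox9-labelled libraries. It was not called (log2 fold change 1.67, SE 0.54, adjusted p = 0.0291), but was with no filter on low counts (adjusted p = 0.00834), and its log2 fold change was 2.39 without control replicate 2.

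The other genes of these groups had few counts. *Col8a2*, the partner of *Col8a1*, had 0, 3 and 0 counts in control against 7, 12, 8 and 2 in the Sox9-labelled libraries, at least 3.00-fold higher in mean CPM but not called (adjusted p = 0.0143). *Col15a1*, a multiplexin of basement membrane zones, had 2, 1 and 4 counts in control against 9, 19, 7 and 6 and missed the threshold (adjusted p = 0.0104), although its groups did not overlap in CPM (log2 fold change 2.45, or 3.11 without control replicate 4). *Col28a1* had a log2 fold change of 0.80 (SE 0.41, adjusted p = 0.149). *Col7a1*, which forms the anchoring fibrils of skin, had 3, 1 and 2 counts in control against 11, 7, 12 and 2, and *Col10a1*, the network collagen of hypertrophic cartilage, had 0, 0 and 3 against 2, 2, 9 and 0. Neither *Col7a1* nor *Col10a1* was tested.

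Collagen genes were then compared with genes that cortical cells are not known to use. The 1372 protein-coding genes for odorant, pheromone, taste and trace amine receptors (chemoreceptor genes) were chosen for this. Of these, 99 were tested, 13 were called higher and 0 lower (0 lower also by DESeq2, by limma and at an unadjusted p under 0.05), and DESeq2 called 21 higher. In 56 of the 99 every Sox9-labelled library was above every control library, beside 24 of the 38 collagen genes tested. The median log2 fold change of the chemoreceptor genes was 1.70 with TMM, beside 1.72 for the collagen genes. With cyclic loess it was 0.23 with 0 called higher, beside 0.63 with 4 called higher for the collagen genes. The filter on low counts was met in all 3 control libraries by 5 of these 99 genes, in fewer by 94 and in none by 49, and a gene that met it only through the Sox9-labelled libraries had to differ. As a summed level over summed exonic length, the collagen genes had 0.175, 0.156 and 0.205 CPM per kilobase in control and 0.648, 0.438, 0.582 and 0.522 in the Sox9-labelled libraries. The chemoreceptor genes had 0.0312, 0.0228 and 0.0294 CPM per kilobase in control and 0.0898, 0.0689, 0.0969 and 0.0805 in the Sox9-labelled libraries. Both sums were higher in every Sox9-labelled library than in every control library. The ratio of the sums was 5.61, 6.82 and 6.96 in control and 7.21, 6.36, 6.01 and 6.48 in the Sox9-labelled libraries, with overlapping groups and means of 6.47 ± 0.741 (SD, n = 3) and 6.52 ± 0.504 (SD, n = 4). The part of what moves the chemoreceptor genes in the differences of the collagen genes was not tested.

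**Figure D4:**
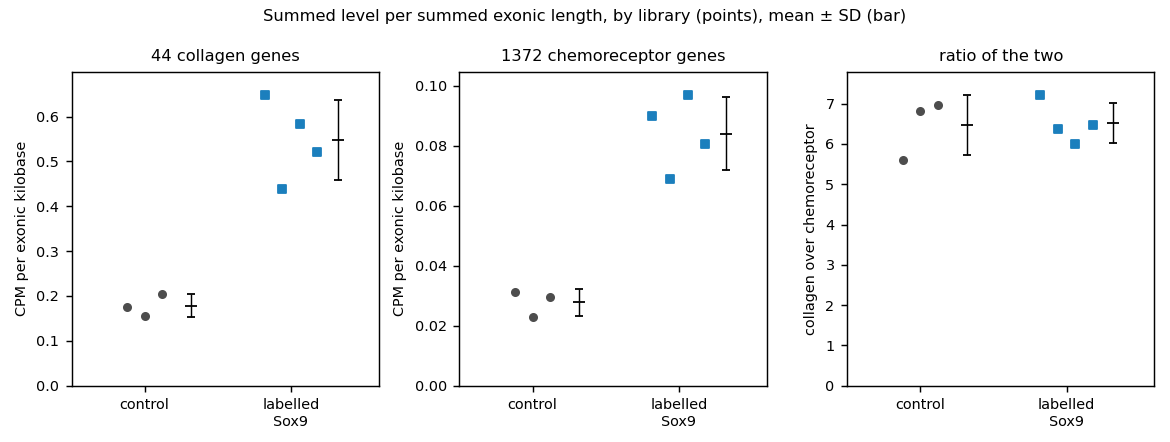
Summed level over summed exonic length (y axis, CPM per exonic kilobase) of the 44 collagen genes (left) and of the 1372 chemoreceptor genes (middle) per library, and their ratio (right). Circles are control libraries, squares Sox9-labelled libraries and bars the mean and SD, and both levels separate the groups whereas the ratio, at 5.61 to 7.21, does not.

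In level, single members stood out from this floor to different degrees. By log2 fold change, 19 of the 38 tested members, among them 13 of the 16 called, exceeded the chemoreceptor median. The 95th percentile of the chemoreceptor log2 fold changes was exceeded by 0 members. Per library, 12, 16 and 15 members lay above the 95th percentile of chemoreceptor levels in control. With the Sox9 label these numbers were 15, 15, 13 and 14. *Col4a1*, *Col4a3*, *Col5a2*, *Col9a3*, *Col13a1* and *Col14a1* were above the 95th percentile of the chemoreceptor genes, per exonic kilobase, in all 7 libraries, and all of these except *Col14a1* were called higher. At the other end, 20 of the 44 members were above it in 0 libraries, among them *Col1a2* and the called genes *Col5a3*, *Col4a4* and *Col25a1*. The mean level was at least 1 CPM per exonic kilobase for 0 members in control and for 7 in the Sox9-labelled libraries (*Col4a1*, *Col5a2*, *Col6a3*, *Col9a3*, *Col13a1*, *Col19a1* and *Col26a1*). These 7 were picked by their level in the Sox9-labelled libraries, so the calls among them are not a separate result.

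Calls of higher expression were frequent among weakly expressed genes. Of the protein-coding genes tested with an average log2 CPM under 1, 21.6% were called higher, and the median log2 fold change was 1.53. In this range 2 of 13 members were called, and 7 of them were above that median. Between 1 and 3, 22.5% of protein-coding genes tested were called higher with a median log2 fold change of 0.60. Here 12 of 22 members were called, and 21 of these 22 were above that median. Between 3 and 6, 3.05% were called higher and the median was -0.13, and the 3 members in this range were *Col4a1*, *Col27a1* and *Col11a1*, of which the first and second were called. Beside the median of their own range, the members lay closest to the rest where expression was lowest.

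**Figure D5:**
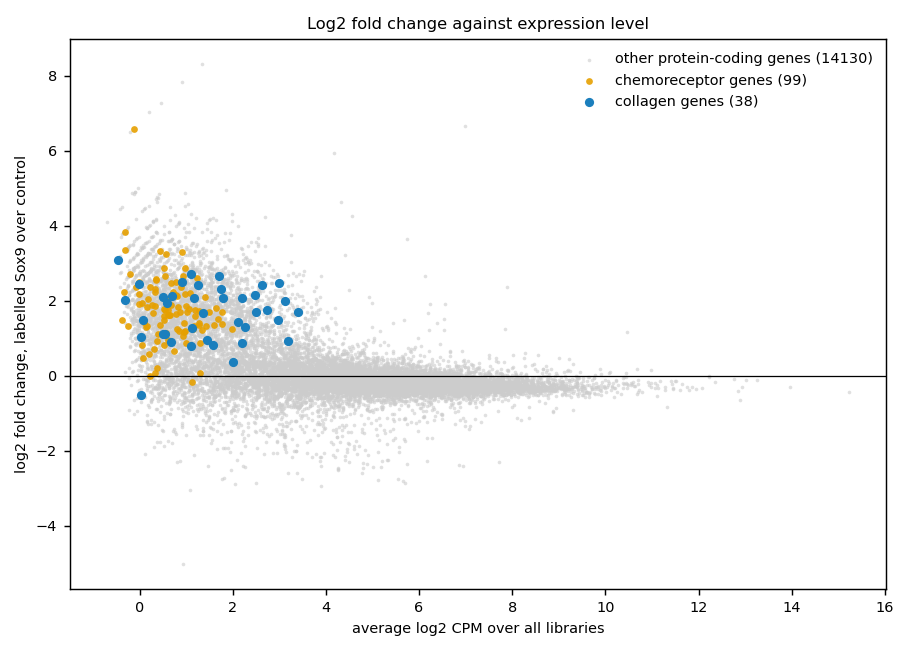
Log2 fold change (y axis, Sox9-labelled libraries over control) against average log2 CPM over all libraries (x axis) for the protein-coding genes tested, each point being a gene. The 38 collagen genes (blue) and the 99 chemoreceptor genes (orange) lie mostly at low average log2 CPM and above 0, where the 2076 genes under an average log2 CPM of 1 have a median of 1.53.

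Collagen maturation needs enzymes and chaperones in the secretory pathway and proteases and cross-linking enzymes outside the cell. Of 32 listed genes for these, 27 were tested and 5 rose, 4 of them among the 15 with an average log2 CPM under 3, where 21.6% (under 1) and 22.5% (1 to 3) of protein-coding genes tested were called higher, while 0 were called lower. At an unadjusted p under 0.05, 4 genes were lower, and DESeq2 and limma each called 2 lower. The median log2 fold change was 0.01, and the summed level was 771 to 839 CPM in control and 695 to 789 CPM in the Sox9-labelled libraries. The largest rises were those of *Loxl1*, a cross-linking enzyme of elastic fibers (2, 6 and 10 counts in control against 39, 30, 42 and 9 in the Sox9-labelled libraries, log2 fold change 2.68, SE 0.56), *P4ha3*, a prolyl hydroxylase subunit (log2 fold change 2.14, SE 0.40), and *Tll2*, a procollagen protease (log2 fold change 2.12, SE 0.53). *Tll2* met the filter on low counts only through the Sox9-labelled libraries and so had to differ. *Serpinh1*, the collagen-specific chaperone, was chosen after its values were seen and had 442, 725 and 661 counts in control against 202, 371, 434 and 144 counts in the Sox9-labelled libraries. It was not called (log2 fold change -0.69, SE 0.20, adjusted p = 0.0187). The 5 genes called higher became 2 without control replicate 1 or 2 or Sox9 replicate 3 and 3 without control replicate 4, and the 0 called lower became 2 without control replicate 1 and 1 without Sox9 replicate 3.

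Among 11 collagen receptor genes, 10 were tested and 2 rose (median log2 fold change 1.04), both of them integrin chains. These were 2 of the 7 receptor genes tested with an average log2 CPM under 3, where 21.6% (under 1) and 22.5% (1 to 3) of protein-coding genes tested were called higher. *Itga11* had 6, 4 and 8 counts in control against 36, 38, 42 and 22 counts in the Sox9-labelled libraries (log2 fold change 2.93, SE 0.44, adjusted p = 0.000522), and *Itga2* had a log2 fold change of 2.05 (SE 0.51, adjusted p = 0.00904). *Itga11* met the filter on low counts only through the Sox9-labelled libraries and so had to differ. Of 12 cartilage genes outside the collagens, 7 were tested and 4 rose, all among the 5 with an average log2 CPM under 3. These 4 (*Matn3*, *Ucma*, *Acan* and *Chad*) met the filter on low counts only through the Sox9-labelled libraries and so had to differ. *Matn3*, a cartilage matrix adaptor, had 3, 1 and 3 counts in control against 26, 27, 22 and 12 counts in the Sox9-labelled libraries and was at least 9.76-fold higher. *Chad*, a cartilage matrix protein, had 1, 2 and 1 counts in control against 46, 16, 13 and 2 and was at least 8.54-fold higher, or at least 3.97-fold without Sox9 replicate 1. The bound for *Acan*, the main cartilage proteoglycan, was 6.10-fold, with 1, 1 and 0 counts in control against 17, 3, 18 and 11. These bounds were computed against a floor of 3 counts, since all 3 genes had at most 3 counts in every control library. Of the receptor genes, 1 was called without control replicate 1 or Sox9 replicate 1, 3 or 4. Of the cartilage genes, 1 was called without control replicate 2 or 4 or Sox9 replicate 1, 2 without each of the other libraries, and 0 with cyclic loess.

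Summed markers of endothelial, mural, meningeal fibroblast and choroid plexus cells were higher in every Sox9-labelled library than in every control library, whereas those of microglia and erythroid cells overlapped. Calls are given for TMM. All tested endothelial, mural, meningeal and choroid plexus markers, 9 of 10 microglia and 4 of 6 erythroid markers had an average log2 CPM under 3, where 21.6% (under 1) and 22.5% (1 to 3) of protein-coding genes tested were called higher. The summed level of 12 endothelial markers was 8.03 to 18.3 CPM in control and 26.4 to 61.1 CPM in the Sox9-labelled libraries, and 2 of 9 tested (*Flt1* and *Kdr*) rose, all 9 having a log2 fold change above 0. *Cldn5*, which was not tested, had 1, 7 and 1 counts in control against 0, 0, 15 and 0. The 10 mural markers had 10.5 to 16.5 and 24.9 to 43.95 CPM, and 2 of 9 tested rose. Of these 9, 8 had a log2 fold change above 0, and in 7 every Sox9-labelled library was above every control library, as for 19.8% of protein-coding genes tested. *Pdgfrb*, the receptor that defines pericytes, had 5, 30 and 24 counts in control against 8, 3, 18 and 0 and was not called (log2 fold change -1.03, SE 0.74, adjusted p = 0.304). For the 12 meningeal fibroblast markers the ranges were 5.39 to 7.17 and 13.9 to 17.2 CPM, and 2 of 5 tested (*Prrx1* and *Slc6a13*) rose. All 5 had a log2 fold change above 0, from 0.31 (*Dcn*) to 2.30 (*Slc6a13*). In 3 of these 5 every Sox9-labelled library was above every control library. *Dcn*, which meningeal fibroblasts express strongly, had 14, 6 and 15 counts in control against 11, 13, 8 and 10 counts in the Sox9-labelled libraries (log2 fold change 0.31, adjusted p = 0.682), and *Lum*, which was not tested, had 2, 0 and 0 counts in control against 11, 0, 3 and 3. Choroid plexus markers (7 genes) had 1.34 to 1.74 and 10.02 to 15.5 CPM, with 3 of 4 tested rising (*Ttr*, *Folr1* and *Kcne2*). These 3, the called mural markers *Cspg4* and *Anpep* and the called microglia marker *C1qa* met the filter on low counts only through the Sox9-labelled libraries. Such genes had to differ. Microglia markers (10 genes, 12.1 to 43.0 and 18.9 to 79.5 CPM) and erythroid markers (8 genes, 2.20 to 24.9 and 15.0 to 94.8 CPM) each had 1 gene called higher, of 10 and 6 tested, with overlapping ranges. With cyclic loess, limma called 0 genes of these 6 lists higher, and the median log2 fold change was 0.65 for endothelial (1.54 with TMM), 0.65 for mural (1.46) -0.19 for meningeal fibroblast (1.502), 1.02 for choroid plexus (3.46, or 2.75 with genes at their lower bounds), -0.12 for microglia (0.57) and 1.96 for erythroid markers (1.99). The sort kept live cells with high RFP fluorescence, set against cells of a brain without electroporation. How far this gate removed other cell types was not tested. The part of these cell types in the differences of the collagen genes was not tested.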

How the data were processed

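RNA-Seq counts of 7 libraries were analyzed, 3 control and 4 labelled Sox9, with groups and replicate numbers from the sample titles. The authors processed reads with bcl2fastq 2.17.1.14 and cutadapt, aligned them to GRCm38 (mm10) with STAR 2.5.2b per the labels and methods, and deposited raw counts per Ensembl gene and FPKM values. The counting program is not given in the sources used here. In 91.7% of 6894 genes, the length linking the authors' counts and FPKM was within 2% of the gene's whole span, so levels were computed from counts over exonic length (GENCODE M21). The lower bounds are ratios of the mean CPM of the Sox9-labelled libraries to a floor of 3 counts. They cover neither counting error nor the spread between libraries, and reads had no molecular identifiers. With 1 Sox9-labelled library left out, bounds fell as low as 2.67-fold (*Col8a2*), 4.00-fold (*C430014B12Rik*), 5.40-fold (*Acan*) and 8.83-fold (*Matn3*).

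The fit used edgeR 4.0.16 (R 4.3.3) on the counts (TMM, filterByExpr, quasi-likelihood test, two-sided, no covariate), with Benjamini-Hochberg adjustment over 16522 genes and calls at adjusted p under 0.01. The script was tested on simulated data. A standard error is the log2 fold change over the square root of F. Alternatives were DESeq2 1.42.0, its size factors, cyclic loess with limma 3.58.1, other filters and thresholds, a replicate block and leaving out each library. Chain ratios were compared by exact permutation in Python 3.11.15 with scipy 1.17.1. Named were *Col4a1*, *Col1a2*, every called member, the member of each group with the highest level per kilobase, members with a negative log2 fold change, and the 3 largest called changes of other lists. Further members and marker genes were named after their values were seen. Members and lists were chosen with earlier results of these data known.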

Additional observations from a re-analysis of the deposited data

Results flagged for a closer look

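*Col27a1* in Sox9 replicate 3 stood apart from the other libraries labelled Sox9. It had 18 CPM (161 counts) there, whereas the next highest of the 4 libraries had 11.7 CPM and the lowest 10.5 CPM, and the gap was 0.842 of the range of the group, above Dixon's 95% critical value for 4 samples. Chance alone singles out a library in about 5% of groups tested in this way. *Col27a1* was called higher without this library as well.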

How the results depend on the processing

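The 16 collagen genes called higher became 18 with DESeq2 and 17 with DESeq2's size factors, both including all 16, and 0 were lower under every setting. The count was 4 with cyclic loess, 8 of 15 tested with at least 10 counts in every library, 26 at an adjusted p under 0.05, 10 with glmTreat against a 1.5-fold change, and 10 to 18 with a library left out (10 without Sox9 replicate 3). For modification and assembly genes, 5 higher became 1, 3, 9, 3 and 2 to 5 in the same order, and 0 lower became 2 with DESeq2, 1 with its size factors, 2 with cyclic loess, 3 without a filter, 3 at an adjusted p under 0.05, and 0 to 2 with a library left out. For receptors, 2 higher became 1, 0 (of 4 tested), 4, 1 and 1 to 2, and for cartilage genes 4 became 0 with cyclic loess, 0 (of 2 tested) with at least 10 counts and 1 to 2 with a library left out. The cause of these shifts was not tested, beyond fewer genes or libraries where these were left out.

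Deviations of same-numbered libraries had correlations of -0.0356, 0.118 and -0.00485. The value of 0.118 was the largest among all pairs of a control and a Sox9-labelled library. With 3 such pairs these values cannot decide whether the numbers pair the libraries. With the replicate block by the titles' numbers, 8 collagen, 2 modification, 1 receptor and 2 cartilage genes were called higher. With the replicate block by the descriptions' numbers, 13 collagen, 3 modification, 1 receptor and 3 cartilage genes were (2 of these 3 among the 4 called without it). The numberings differ in 1 library, control replicate 4 by its title, which the description numbers 3. The difference in the log2 ratio of *Col5a1* to *Col5a2* turned to 0.032 without Sox9 replicate 4, lay between -0.95 and 0.032 with a library left out, and that of *Col1a1* to *Col1a2* between 0.22 (without control replicate 4) and 0.96 (without control replicate 2). That of *Col4a1* to *Col4a2* lay between 0.26 (without control replicate 2) and 1.40 (without control replicate 4). By the deposited FPKM, 0 members reached a mean of 1. Depth limits the members, since 29 of 44 had under 10 counts in at least 1 library. Of the 20 collagen genes named by the rule, 0 turned their direction under any setting, but 16 of these were named because they were called. Of all 38 tested members, 37 were above 0 with TMM and 27 with cyclic loess. Among those that turned with cyclic loess were *Col2a1* (log2 fold change 1.27 to -0.05) and *Col4a2* (0.89 to -0.41). No chain pair had 20 counts in every library, so that minimum gave no value.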
